A study of Mus musculus with 15 samples.

Results

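Among 12 mouse AKP cell lines, 3 had little messenger RNA for E-cadherin, the gene Cdh1, and 9 had much of it. The groups were chosen by the deposited log2 value of Cdh1. AKP lines below 7 form the low group (AKP 1, AKP 8 and AKP 10) and the other AKP lines form the high group (AKP 2 to AKP 7, AKP 9, AKP 11 and AKP 12), out of 15 lines in all. Since Cdh1 chose the groups, its own values are a description and carry no test.

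The other 3 lines carry the label AP, and neither set of letters nor a tissue of origin is explained in the labels. All lines were kept without treatment in DMEM with 10% FBS, and the RNA of each was read on its own Affymetrix mouse expression array, so a line is 1 sample. AKP 1 and AKP 8 are labelled female and AKP 10 male, and 7 of the 9 high lines are female. The labels call all 3 low lines tumour, and the line labelled adenoma, AKP 6, is in the high group. Nothing in the labels says whether lines share an animal, so a p-value here reflects how these particular lines vary.

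E-cadherin is the cell surface protein that holds neighbouring epithelial cells together, and its tail binds beta-catenin inside the cell. Keratins 8 and 18 pair to form the filaments of simple epithelia such as the gut lining. In the epithelial to mesenchymal transition, repressors of the Zeb, Snail and Twist families lower Cdh1, junction genes fall with it, and genes of fibroblast-like cells come on.

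Cdh1 stood at 5.54 in AKP 1, 5.71 in AKP 8 and 5.89 in AKP 10. Of the high lines, AKP 7 lay nearest the limit at 8.30, followed by AKP 4 at 10.46, while the median of the 9 was 12.68 and the highest, AKP 9, reached 13.61. The widest gap between neighbouring AKP lines ran from 5.89 to 8.30, so a limit placed at that gap gives the same groups. Array medians lay between 3.91 and 4.17, and values below 3, the floor at which dim probe sets pile up, made up 35.9% to 39.5% of an array. The size of a difference that reaches this floor is set by it. Among the high lines AKP 11 had 4453 genes below the range of the other 8 and AKP 12 had 5178 above it, more than any other line in that direction. The series' design text counts 10 AKP lines. In the authors' deposited table, the AKP means matched the mean of the 10 lines other than AKP 1 and AKP 8 within 0.02 for 409 of 410 genes, a set of lines that holds only 1 of the 3 low lines.

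The 20 genes of adequate brightness (mean of at least 8) on either side of Cdh1, in the gene order of GRCm38.p6, were looked at after the values were seen. The low minus high differences of the 20 ran from -0.43 to 0.76 with a median of -0.18, and none had groups that did not overlap. The difference of Cdh1 itself was -6.36.

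The keratins followed Cdh1 in part. Krt8 stood at 9.49 in AKP 1, 9.91 in AKP 8 and 4.27 in AKP 10, against a lowest value of 12.28, a median of 14.24 and a highest value of 14.56 in the high lines. The groups did not overlap, and the mean difference was -5.75 ± 1.05 (SE), which did not pass the adjusted threshold of 0.05 (limma adjusted p = 0.143). Krt18, its filament partner, was at 10.82 in AKP 1 and 8.93 in AKP 8 but at 14.55 in AKP 10, within the high range of 14.01 to 15.52. Its difference was -3.68 ± 0.85 (SE; limma adjusted p = 0.252). AKP 10 thus had much Krt18 beside little Krt8. Vim, the intermediate filament protein of mesenchymal cells, was among the brightest genes in every AKP line, at 16.01, 16.39 and 15.82 in the low lines and 15.62 to 16.07 in the high lines. Cdh2, the N-cadherin gene, lay between 11.20 and 12.94 in the low lines and between 11.48 and 13.37 in the high lines. High lines therefore carried E-cadherin together with vimentin and N-cadherin RNA. In bulk RNA, fewer cells with a gene and less RNA per cell cannot be told apart.

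**Figure D1:**
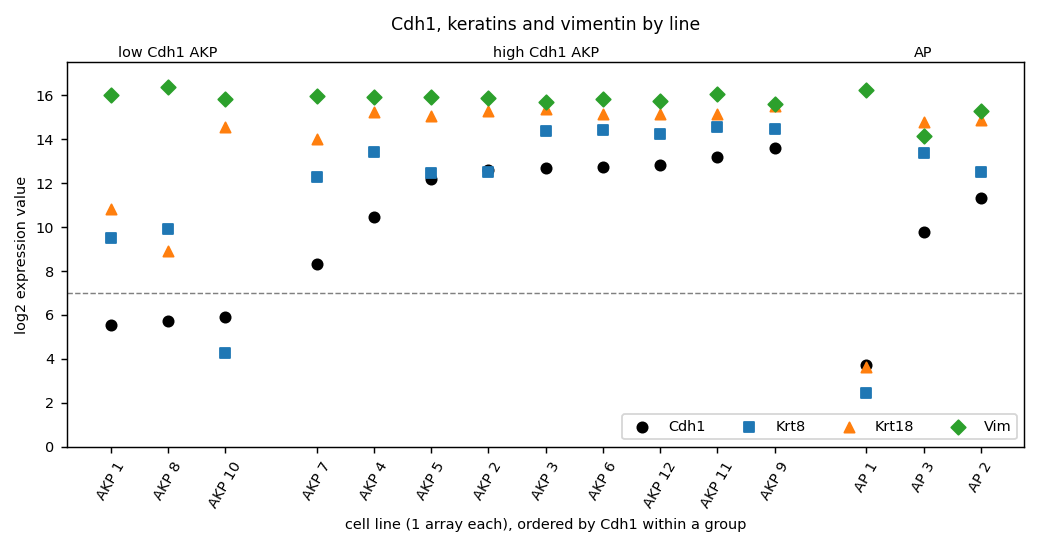
Log2 expression values of Cdh1, Krt8, Krt18 and Vim in each of the 15 lines, 1 array a line, with the limit of 7 on Cdh1 as a dashed line. Krt8 was lower in all 3 low AKP lines than in every high AKP line, Krt18 was lower in AKP 1 and AKP 8 only, and Vim lay between 15.62 and 16.39 in all AKP lines.

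Across all genes, 8 passed the adjusted threshold as higher and 1 as lower in the low lines. Of the 8, the growth factor receptor Pdgfrb rose the most, and the others were A4galt, Tgfb1i1, Cacna1c, Dennd2a, Calhm2, Plod1 and Dact3. The called gene that fell was Acsbg1. Of 18192 genes tested without Cdh1, limma called 9 at an adjusted p of 0.05, which is 0.0495% of them (0.044% higher and 0.0055% lower). At an unadjusted p of 0.05 there were 1344 genes, or 7.39%.

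Pdgfrb, a receptor for platelet-derived growth factor typical of fibroblasts and pericytes, stood at 13.11 in AKP 1, 10.98 in AKP 8 and 9.78 in AKP 10. In the high lines its lowest value was 2.65, the median 4.24 and the highest 6.45, in AKP 5. All low lines were well above all high lines, a difference of 7.15 ± 0.76 (SE; limma adjusted p = 0.00832). A dimmer probe set of Pdgfrb lay at 8.58, 6.44 and 5.44, against 2.66 to 3.67 in the high lines, a smaller difference of 3.63. It just missed the threshold when every probe set was tested singly (limma adjusted p = 0.0507). A4galt, the enzyme that makes the glycolipid globotriaosylceramide, lay at 8.51, 8.21 and 6.31 in AKP 1, AKP 8 and AKP 10 and at 2.40 to 3.94 in the high lines, with a median of 2.72. It rose by 4.79 ± 0.45 (SE; limma adjusted p = 0.00633), from values near the floor. Tgfb1i1, a focal adhesion protein also called Hic-5, was at 9.38, 8.97 and 7.30 in the low lines, against 2.60 to 5.51 with a median of 4.51. The groups were apart by 4.10 ± 0.54 (SE; limma adjusted p = 0.0257).

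Plod1, a lysyl hydroxylase that modifies collagen, was well expressed in every line. It lay at 10.46 in AKP 1 and 9.89 in AKP 8 and AKP 10, against 7.46 to 8.67 with a median of 7.87 in the high lines, and rose by 2.13 ± 0.26 (SE; limma adjusted p = 0.0163). Dact3, an inhibitor of Wnt signalling that binds Dishevelled, was at 6.37, 6.32 and 5.94, against 3.45 to 4.57 with a median of 4.27, a rise of 2.10 ± 0.24 (SE; limma adjusted p = 0.015). The low lines lay close together for Plod1 and Dact3, with SDs of 0.33 and 0.23 (n = 3). Dennd2a, a DENN domain protein of the kind that activates Rab GTPases, was at 8.29, 8.13 and 7.63, against 3.92 to 5.75 with a median of 5.14, and rose by 3.06 ± 0.37 (SE; limma adjusted p = 0.015).

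Cacna1c, the pore subunit of an L-type calcium channel, lay at 6.47, 7.19 and 4.29 in AKP 1, AKP 8 and AKP 10 and between 2.71 and 2.82 in all 9 high lines. It rose by 3.21 ± 0.43 (SE; limma adjusted p = 0.0284). A dimmer probe set of Cacna1c lay at 3.39, 6.54 and 2.77, against 2.17 to 2.69 in the high lines. It did not pass when every probe set was tested singly (limma adjusted p = 0.544), and AKP 10 was at the floor there. Calhm2, a member of the calcium homeostasis modulator channel family, was at 4.70, 5.83 and 4.51 against 2.72 to 3.00, a rise of 2.15 ± 0.21 (SE; limma adjusted p = 0.00633). The high lines held these channel genes at the floor, where their spread is small. Acsbg1, an acyl-CoA synthetase that activates long-chain fatty acids, was the called gene that fell. It lay at 3.34, 3.62 and 4.83 in the low lines and at 7.56 to 10.46 with a median of 8.67 in the high lines, a difference of -4.94 ± 0.59 (SE; limma adjusted p = 0.015).

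**Figure D2:**
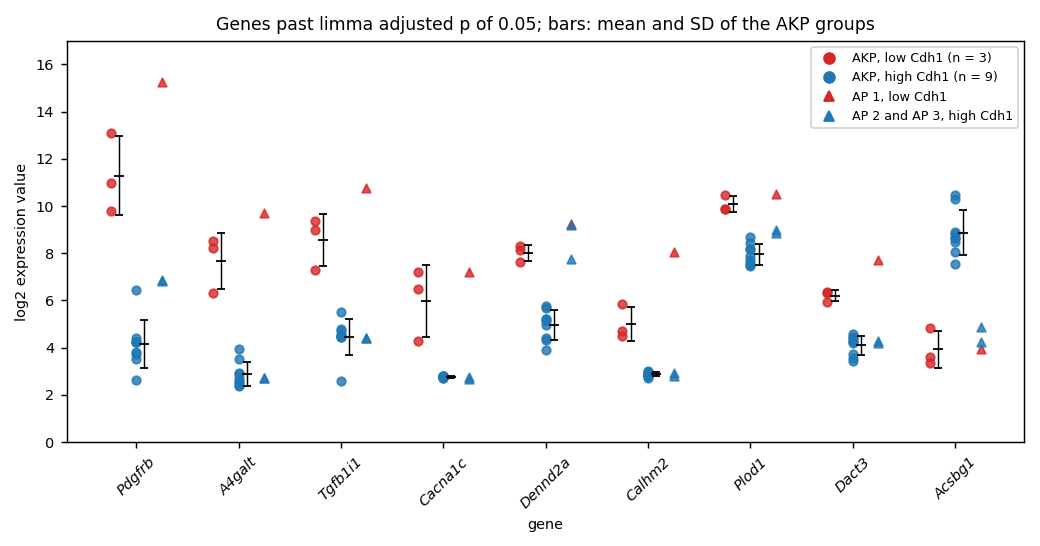
Log2 expression values of the 9 genes past a limma adjusted p of 0.05, with circles for AKP lines, triangles for AP lines, red for lines with Cdh1 below 7 and blue for the others. Bars give the mean and SD of the 3 low and the 9 high AKP lines, which do not overlap for any of the 9 genes.

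The number of called genes rested on which low lines were in. Without AKP 10 it was 143, with all 9 genes among them, without AKP 1 it was 56 and without AKP 8 it was 15. Without AKP 11 and AKP 12, the high lines that stood apart, it was 5. With Cdh1 as a continuous value in place of the groups, 5 genes passed and none of the 9 was among them, while A4galt and Calhm2 passed in every other alternative that kept them. Cacna1c passed in 9 of 25 alternatives and missed when any AKP line but AKP 10 was left out. Tgfb1i1 passed in 12 of 26. When 1 line was left out, Acsbg1, Dact3 and Dennd2a missed without AKP 8, Plod1 missed without AKP 5, and Tgfb1i1 missed without AKP 2, AKP 5, AKP 6, AKP 8, AKP 9, AKP 11 or AKP 12. With array weights Acsbg1, Cacna1c, Dennd2a, Plod1 and Tgfb1i1 missed, and without AKP 11 and AKP 12 Acsbg1, Cacna1c, Pdgfrb, Plod1 and Tgfb1i1 did. With AKP 10 as the only low line, Acsbg1, Dact3, Dennd2a, Pdgfrb, Plod1 and Tgfb1i1 missed.

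In 235 genes, 1.29% of those tested, the low and high lines did not overlap, with 131 higher in the low lines (0.72%) and 104 lower (0.572%). Large differences among the higher genes that were not called included those of a matrix and a signalling gene. Serpinh1, the chaperone that folds collagen, stood at 14.55 in AKP 1, 11.81 in AKP 8 and 11.97 in AKP 10, against 3.47 to 10.20 with a median of 5.14 (7.38 ± 1.21, SE; limma adjusted p = 0.101). Sfrp2, a secreted Wnt modulator, was at 6.99, 13.58 and 8.22 against 2.11 to 4.62 (6.89 ± 1.11, SE; limma adjusted p = 0.0972).

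Prrx1, a homeodomain transcription factor of mesenchyme, was nearly level across the low lines at 11.73, 11.61 and 11.35. In the high lines it ran from 2.88 to 8.41 with a median of 3.24, a difference of 6.92 ± 1.24 (SE; limma adjusted p = 0.143). AKP 5 at 8.41 and AKP 4 at 7.88 stood above the other high lines. Of the 6 probe sets of Prrx1, 3 dimmer ones passed when every probe set was tested singly (limma adjusted p of 1.1e-05, 5.6e-05 and 6.4e-05), and in those the highest value of a high line was 3.47. That setting called 16 probe sets of 13 genes in all.

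Of the lower genes that did not overlap, Wfdc2, a secreted protease inhibitor of epithelia, had the largest difference. It stood at 6.90 in AKP 1, 5.67 in AKP 8 and 2.10 in AKP 10, against 8.43 to 14.63 with a median of 13.43 (-8.10 ± 1.28, SE; limma adjusted p = 0.0855). S100a14, a calcium-binding protein of epithelia, was at 3.21, 3.64 and 4.52 against 6.89 to 13.51 (-6.95 ± 1.36, SE; limma adjusted p = 0.152). Ppbp, a chemokine, differed by -6.81, Serpinb7, a serpin, by -5.99, Gfra1, a co-receptor for glial cell line-derived neurotrophic factor, by -5.23, and Macc1, known from colon cancer metastasis, by -5.02. Their limma adjusted p ran from 0.143 to 0.327. Serpinb7 and Gfra1 were at the floor in the low lines, and each was also near it in 1 high line, at 2.59 and 2.42. Dimmer probe sets of Gfra1 had more high lines near the floor. One had AKP 4, AKP 9 and AKP 12 at 2.48, 2.55 and 2.55, and another had AKP 4 and AKP 12 at 2.93 and 3.00.

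Cell junction genes had lower means in the low lines, without a gene past the test. Of 21 measured genes of tight junctions and polarity, 19 had a lower mean, with a median difference of -2.15, and 3 did not overlap. Over all genes 49.5% had a lower mean, the median difference was 0.0010, and 0.572% were lower without overlap. Desmosome and hemidesmosome genes had lower means in 14 of 15, with a median of -2.30 and 2 that did not overlap. Of these 15, 9 lay below every high line in AKP 1, 4 in AKP 8 and 4 in AKP 10. Above every high line were 0, 2 and 3 in the same order. Of all genes, 11.4%, 10.5% and 8.32% lay below and 13.9%, 13.4% and 9.22% above. The junction lists, like the others below, were drawn up with earlier results of these data known.

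Cgn, which encodes the tight junction plaque protein cingulin, lay at 3.47, 3.36 and 3.45 in AKP 1, AKP 8 and AKP 10, against 4.98 to 9.43 with a median of 8.31 (-4.49 ± 0.81, SE; limma adjusted p = 0.143). Pard6b, a subunit of the Par polarity complex, was at 5.71, 4.09 and 5.09 against 7.12 to 9.64 (-3.47 ± 0.54, SE; limma adjusted p = 0.0786). Crb3, the Crumbs polarity protein of epithelia, was at 4.59, 6.48 and 9.01 against 9.06 to 10.07, so AKP 10 lay just below the high range (limma adjusted p = 0.256). Perp, a desmosome protein, was at 4.82, 7.96 and 4.68 against 8.52 to 12.92 (-5.17 ± 1.08, SE; limma adjusted p = 0.195). Ppl, periplakin, lay at 4.02, 4.31 and 3.20 against 4.51 to 8.49. Lsr, a receptor found where the corners of cells meet, lay at 1.75, 4.48 and 5.13 against 5.84 to 10.78 (-5.38 ± 1.16, SE; limma adjusted p = 0.229). In all of these the groups did not overlap.

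Of the adherens junction genes other than Cdh1, 8 of 13 had a lower mean, with a median difference of -0.08 and a mean difference of -0.38. Of the 13, 2 did not overlap, each lower, beside 0.572% of all genes. Plekha7, which ties junctions to microtubules, was at 2.43, 3.11 and 6.94 against 7.04 to 9.07 (limma adjusted p = 0.229). Ctnnb1, the gene of beta-catenin, lay at 14.20, 14.36 and 14.07 against 14.38 to 14.95, a small difference of -0.44 ± 0.13 (SE; limma adjusted p = 0.358) with no overlap. Its dimmer probe sets, also without overlap, differed more, by -1.11 and -0.95 (limma adjusted p of 0.24 and 0.246 with every probe set tested singly). Ctnna1, alpha-catenin, was at 14.43 to 15.40 in the low lines and 14.61 to 15.14 in the high lines, and Ctnnd1, p120 catenin, at 9.34 to 11.00 and 9.47 to 11.22.

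Zeb and Snail proteins bind the E-box letters CACCTG, or CAGGTG on the other strand. The promoter windows of RefSeq, from 250 bases before to 50 after a gene start, were searched for either form in the build GRCm38.p6. A gene with more than 1 window was counted, and is shown, by the window with the most E-boxes. Some named genes, Cdh1 among them, had no window. Of the members of the junction and simple keratin lists with a window, 19 of 34 held at least 1 E-box (55.9%), against 3316 of 14452 tested genes (22.9%) and 20.2% of all 32851 windows. Of the genes that did not overlap, 27 of 84 of the lower ones held it (32.1%) and 25 of 106 of the higher ones (23.6%). The 4 windows that follow are of genes with lower values in all 3 low lines than in every high line, and show the E-boxes in capitals, 5′ to 3′ in the direction of the gene. A match is a description of the letters and shows no binding.
Krt8 (chr15:102004293-102004592, minus strand): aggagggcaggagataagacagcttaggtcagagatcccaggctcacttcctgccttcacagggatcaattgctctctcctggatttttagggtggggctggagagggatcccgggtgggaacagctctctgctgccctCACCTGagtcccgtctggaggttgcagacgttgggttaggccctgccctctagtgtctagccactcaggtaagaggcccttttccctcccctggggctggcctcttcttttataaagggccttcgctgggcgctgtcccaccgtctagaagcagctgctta
Pard6b (chr2:168080754-168081053, plus strand): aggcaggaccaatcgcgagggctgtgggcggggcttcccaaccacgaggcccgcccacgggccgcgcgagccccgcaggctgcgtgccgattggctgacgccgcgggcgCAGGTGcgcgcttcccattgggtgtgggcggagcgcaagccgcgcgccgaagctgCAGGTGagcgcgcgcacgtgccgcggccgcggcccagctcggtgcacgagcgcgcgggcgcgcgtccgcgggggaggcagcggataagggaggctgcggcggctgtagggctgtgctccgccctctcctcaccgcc
Crb3 (chr17:57061951-57062250, plus strand): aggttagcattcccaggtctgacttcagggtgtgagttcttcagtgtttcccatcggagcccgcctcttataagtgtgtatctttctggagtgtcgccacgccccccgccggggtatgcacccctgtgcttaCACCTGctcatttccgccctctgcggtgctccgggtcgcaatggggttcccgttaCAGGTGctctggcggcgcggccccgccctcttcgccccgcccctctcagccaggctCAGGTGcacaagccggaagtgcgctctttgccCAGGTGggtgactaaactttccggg
Lsr (chr7:30973420-30973719, minus strand): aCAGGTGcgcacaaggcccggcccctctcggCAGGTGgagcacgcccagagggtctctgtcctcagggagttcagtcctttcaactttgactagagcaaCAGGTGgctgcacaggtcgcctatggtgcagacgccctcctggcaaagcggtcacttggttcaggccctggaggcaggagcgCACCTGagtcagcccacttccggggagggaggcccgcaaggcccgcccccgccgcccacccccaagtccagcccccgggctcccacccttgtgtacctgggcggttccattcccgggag
Krt8 held 1 E-box, Pard6b 2, and Crb3 and Lsr 4 each. The window of Wfdc2, not shown, held 2. The windows of Acsbg1, Ppbp, Serpinb7, Gfra1, Macc1, Cgn and Ctnnb1 held none.

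Epithelial surface proteins and proteases had lower means in 17 of 18, with a median difference of -2.90. Of the 18, 1, Cdh17, was lower without overlap, beside 0.572% of all genes. Cdh17, the liver-intestine cadherin, was at 2.90, 6.51 and 2.86 against 7.76 to 12.90 with a median of 10.29 (-6.09 ± 1.17, SE; limma adjusted p = 0.152). AKP 7, the high line with the least Cdh1, had the most Cdh17. Myo5b, a motor of apical membrane traffic, was at the floor in AKP 1 and AKP 8, at 2.25 and 2.33, and at 7.99 in AKP 10, within the high range of 7.54 to 10.37. Lad1, a basement membrane anchor protein, ran the same way at 2.80, 7.66 and 11.33, against 10.41 to 12.64. Of epithelial transcription and splicing factors, 14 of 17 had a lower mean, with a median of -0.80 and no gene without overlap. Elf3 and Ehf, ETS factors of epithelia, differed by -3.21 and -4.36 (limma adjusted p = 0.296 and 0.376), and Klf4, a factor of differentiated epithelia, by -1.86 (limma adjusted p = 0.389).

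Other epithelial genes did not follow Cdh1 line by line. A group of 9 was chosen after the values were seen, namely the claudins Cldn3, Cldn4 and Cldn7, Marveld3 of tight junctions, the protease inhibitor Spint1, the protease St14, the GTPase Rab25, the adaptor subunit Ap1m2 and the splicing factor Esrp1. Below a log2 value of 4 lay 9 of them in AKP 1, 8 in AKP 8 and 9 in AKP 10. In the high lines AKP 2, AKP 5 and AKP 7 the numbers were 9, 8 and 8, while AKP 4 had 1 and the other 5 high lines 0. AKP 2 and AKP 5 had Cdh1 at 12.60 and 12.19 beside these low values.

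Probe sets of Epcam, an epithelial adhesion molecule, disagreed. The brightest lay at 9.31, 9.28 and 8.37 in the low lines and 8.11 to 8.72 in the high lines, almost flat. The second lay at 2.59, 6.77 and 2.13 in AKP 1, AKP 8 and AKP 10. In the high lines it was at 2.47, 3.07 and 3.46 in AKP 5, AKP 7 and AKP 2 and at 9.20 to 13.63 in the other 6, which is the same division of the high lines as in the 9 genes.

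**Figure D3:**
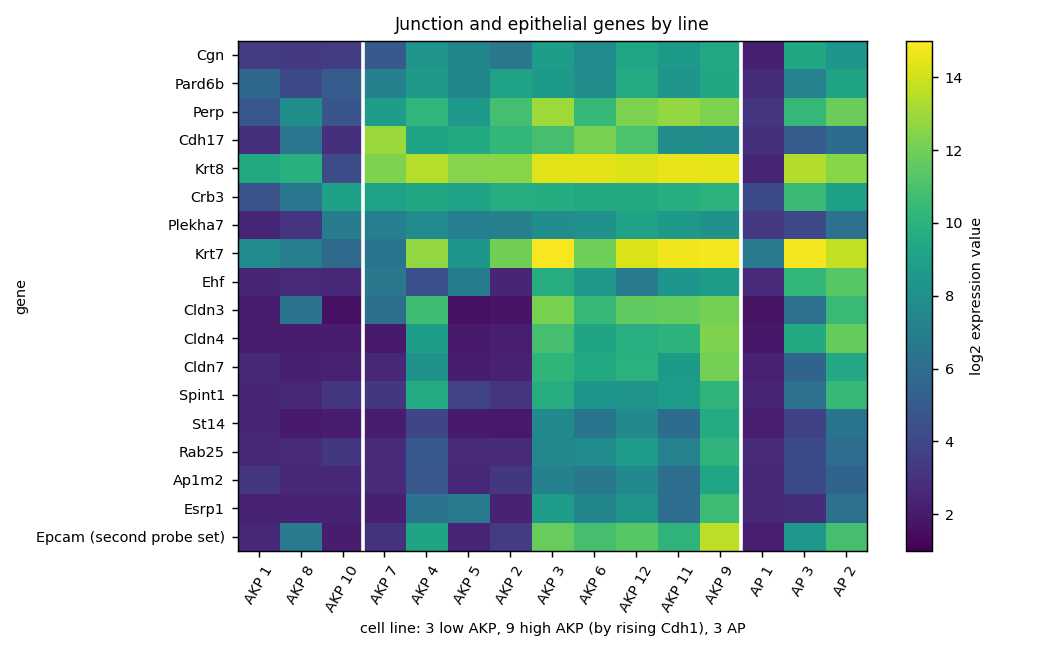
Log2 expression value, by colour, of 17 junction, keratin and epithelial genes and of the second Epcam probe set in each line, with white lines between the 3 low AKP, 9 high AKP and 3 AP lines. The upper rows are mostly low in the 3 low AKP lines, but Crb3 and Plekha7 in AKP 10 lie near the high lines. Krt7 is also low in AKP 7 and Ehf in AKP 2. The rows from Cldn3 down are mostly dark in AKP 7, AKP 5 and AKP 2 as well.

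Of the simple-epithelium keratins, 5 of 6 had a lower mean, with a median difference of -3.14. Krt7 lay at 7.73, 6.98 and 5.86 in the low lines and at 6.43 to 14.86 with a median of 12.73 in the high lines (limma adjusted p = 0.454). Krt19 was at 10.76, 12.44 and 14.58 against 13.20 to 15.30, so AKP 10 was within the range, as for Krt18. Squamous genes had a median of -0.41 over 13. Sprr1a, a cornified envelope protein, was at 10.01, 14.31 and 10.38 against 13.80 to 15.70 (limma adjusted p = 0.256), and Krt5 and Trp63, markers of basal cells, were at or below 3.75 in every AKP line.

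Among transcription factors of the epithelial to mesenchymal transition, 9 of 12 had a higher mean in the low lines, with a median difference of 0.76 and 2 without overlap. These were Prrx1 and Zeb1, both higher in the low lines, beside 0.72% of all genes without overlap in that direction. Zeb1, a repressor of Cdh1, was at 11.20, 11.85 and 11.23 against 10.09 to 11.07 with a median of 10.67 (0.72 ± 0.23, SE; limma adjusted p = 0.445). Zeb1 was thus present in every line and differed little. Snai1 stood at 7.93 in AKP 1, 3.82 in AKP 8 and 5.44 in AKP 10 against 2.62 to 6.07, Snai2 at 12.66, 13.25 and 11.20 against 9.14 to 12.26, and Twist1 at 9.97, 12.05 and 11.40 against 10.41 to 11.84. None of Snai1, Snai2 and Twist1 lay above every high line in all low lines. Zeb2 differed by -0.06, and Hmga2, a chromatin protein, by -1.17 (limma adjusted p = 0.535).

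Mesenchymal adhesion and cytoskeleton genes had a median difference of 0.93 over 17, and 13 had a higher mean. Lox, which crosslinks collagen, was at 12.59 in AKP 1 but at 4.73 and 4.44 in AKP 8 and AKP 10, against 2.11 to 3.78, with no overlap (limma adjusted p = 0.49). That separation held in its brightest probe set only. In the others AKP 1 was raised, at 11.77 and 4.19, and AKP 8 and AKP 10 lay within the high range. Cdh11, the cadherin of mesenchyme, was at 9.05, 15.21 and 12.49. In the high lines it ran from 2.31 to 11.86, so AKP 1 overlapped (6.67 ± 2.09, SE; limma adjusted p = 0.426). Fn1, fibronectin, was at 13.87 to 14.91 in the low lines and 13.65 to 14.75 in the high lines.

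Genes of fibroblasts and smooth muscle were higher in mean in 18 of 19, with a median difference of 3.30. Of the 19, 1, Pdgfrb, was called higher, beside 0.044% of all genes. The summed log2 level of the list ran from 93.0 to 193 in the low lines and from 83.5 to 102 in the high lines. It was AKP 1 and AKP 8 that held the list up: 14 genes in AKP 1 and 12 in AKP 8 lay above every high line, against 1, Pdgfrb, in AKP 10. Of all genes, 13.9%, 13.4% and 9.22% lay above every high line in AKP 1, AKP 8 and AKP 10. Acta2, smooth muscle actin, was at 12.82, 12.35 and 9.09 against 4.88 to 9.50 (4.67 ± 1.11, SE; limma adjusted p = 0.261). Thy1, a surface protein of fibroblasts, was at 12.06, 9.55 and 2.33 against 1.85 to 3.08 (5.86 ± 1.46, SE; limma adjusted p = 0.285). The collagen gene Col1a2 was at 12.60 in AKP 1 and at 2.98 and 2.91 in AKP 8 and AKP 10, within the high range of 2.35 to 3.02. Lum, a matrix proteoglycan, was at the floor in all low lines, at 2.38 to 3.00. The part of these cell type markers in the other differences was not tested.

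Of the markers of blood and vessel cells, no haematopoietic gene and 1 endothelial gene had groups that did not overlap, beside 1.29% of all genes. Haematopoietic genes had a median difference of -0.04 over 13 with a summed level of 40.8 to 42.4 in the low lines and 38.6 to 44.1 in the high lines, and Ptprc, the CD45 gene, lay at 1.97 to 2.06 in the low lines. Endothelial genes had a median of 0.02 over 11, with sums of 39.6 to 45.3 and 40.5 to 47.3. Pecam1 and Cdh5, which define endothelium, were at or below 2.27 in every AKP line. In AKP 1, 4 of the 11 lay above every high line, among them Emcn, endomucin, at 7.32 against 2.28 and 2.29 in AKP 8 and AKP 10 and 2.19 to 3.09 in the high lines. Vwf, a clotting protein of vessels, had no overlap at 4.01, 3.27 and 3.33 against 2.49 to 3.25, a difference of 0.70 (limma adjusted p = 0.393) near the floor. Flt1, a receptor for vascular growth factor, was at 5.38 and 5.62 in AKP 1 and AKP 8 and at 9.36 in AKP 10, against 8.06 to 11.39.

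**Figure D4:**
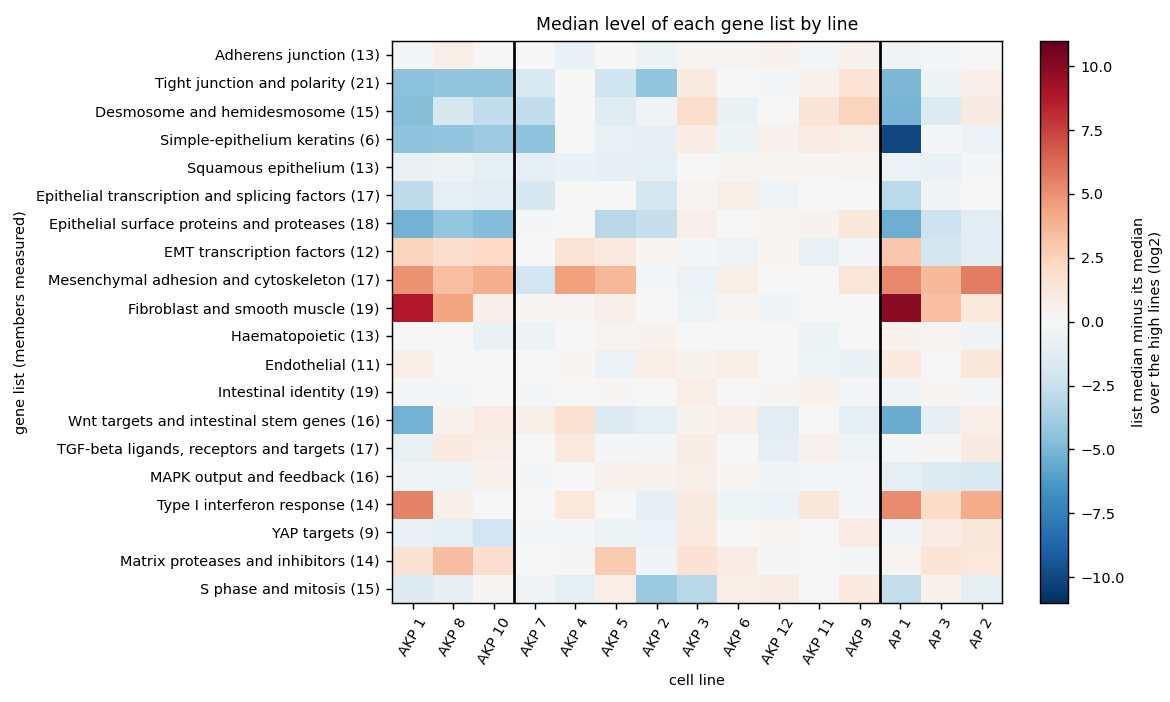
Median log2 level of each gene list in each line, minus the median of that value over the 9 high lines, with black lines between the low AKP, high AKP and AP lines. Tight junction genes were low in all 3 low lines and in AKP 2, fibroblast genes were high in AKP 1 and AKP 8, and interferon genes were high and Wnt targets low in AKP 1.

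Signalling lists showed how the low lines differed among themselves. Targets of Wnt signalling and intestinal stem cell genes had a median difference of -0.69 over 16, and 7 were below every high line in AKP 1, against 1 in AKP 8 and 2 in AKP 10. Above every high line were 1, 4 and 3 of them in the same order. Over all genes 11.4%, 10.5% and 8.32% lay below the range of the high lines in these 3 lines. Axin2, a negative feedback target, was at 6.04 in AKP 1, 12.27 in AKP 8 and 12.10 in AKP 10, against 10.28 to 12.04. Notum, a secreted Wnt inhibitor, was at 2.39, 12.42 and 12.03 against 6.06 to 12.13, and Nkd1, another feedback gene, at 2.83, 11.22 and 12.71 against 4.05 to 13.66. For Axin2, AKP 1 lay below and AKP 8 and AKP 10 lay just above the high range. Lgr5, the stem cell receptor, differed by -2.83 (limma adjusted p = 0.768) and Apcdd1, a Wnt inhibitor, by 2.69 (limma adjusted p = 0.787), with overlap in each.

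Genes of the type I interferon response had higher means in 14 of 14, with a median difference of 1.89. In AKP 1 all 14 lay above every high line, against 6 in AKP 8 and 2 in AKP 10, where another 2 lay below every high line. The share of all genes above the range was 13.9%, 13.4% and 9.22% in AKP 1, AKP 8 and AKP 10. Ifit3, an antiviral protein, was at 11.46, 9.31 and 5.28 against 3.63 to 4.28 (4.72 ± 0.91, SE; limma adjusted p = 0.152), with no overlap. Ifit2 of the same family was at 11.80, 13.24 and 10.75 against 6.89 to 10.13 (3.36 ± 0.68, SE; limma adjusted p = 0.177), also apart. Irf7, which amplifies the response, was at 9.60 in AKP 1 and at 4.08 and 4.07 in AKP 8 and AKP 10, against 2.48 to 4.60.

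TGF-beta genes had a median difference of 0.01 over 17, with 8 lower in mean. Tgfbr3, a co-receptor for TGF-beta, was at 10.80 and 10.54 in AKP 1 and AKP 8 and at 3.55 in AKP 10, against 2.14 to 3.84 (5.39 ± 1.26, SE; limma adjusted p = 0.257). Tgfbi, a target of the pathway, was at 13.07, 13.62 and 12.84 against 9.11 to 12.97. The ligand gene Tgfb1 differed by 0.18 and the receptor gene Tgfbr2 by -0.20. AKP 10 lay within the high range for Tgfbr3 and Tgfbi.

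MAPK output genes had a median difference of -0.25 over 16. Dusp4, a phosphatase that limits the pathway, was at 10.19, 12.15 and 12.82 against 11.99 to 13.68 (limma adjusted p = 0.646). YAP targets had a median of -0.07 over 9, and Ccn2, a matrix signalling protein, was at 14.46, 10.77 and 11.01 against 12.18 to 15.04, low in AKP 8 and AKP 10 only (limma adjusted p = 0.711). Matrix proteases and inhibitors had a median of 0.45 over 14. Mmp14, a membrane-bound collagenase, was at 12.14, 13.70 and 12.70 against 10.83 to 12.53 (limma adjusted p = 0.507).

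Intestinal identity genes had a median difference of -0.01 over 19. Vil1, Fabp1 and Alpi, genes of absorptive cells, were at or below 4.21 in every AKP line, low and high. Cdhr2, a brush border cadherin, was at the floor in the low lines at 2.71 to 2.93 and ran from 2.84 to 10.90 in the high lines (limma adjusted p = 0.542). S phase and mitosis genes had a median of -0.14 over 15, and none of the 15 was outside the high range in any low line. Mcm2, a replication helicase subunit, was at 10.57, 10.20 and 12.04 against 9.76 to 12.38.

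The 3 low lines were also compared with each other. Correlation of log2 values over 18193 genes, given as a description, was 0.927 between AKP 1 and AKP 8, 0.918 between AKP 1 and AKP 10 and 0.959 between AKP 8 and AKP 10. The line most like AKP 1 was AP 1 (0.937), that most like AKP 8 was AKP 10, and that most like AKP 10 was the high line AKP 6 (0.966). AKP 1 had 2526 genes above and 2081 below the range of the 9 high lines, AKP 8 had 2429 and 1913, and AKP 10 had 1677 and 1513. Single high lines set against the other 8 had counts of like size, such as 2416 and 3295 in AKP 2 and 2121 and 1953 in AKP 7. AKP 1 and AKP 8 shared 561 of the genes above, AKP 8 and AKP 10 shared 599, and AKP 1 and AKP 10 shared 288.

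With AKP 10 left out, 96 of 18192 genes rose and 47 fell in AKP 1 and AKP 8. This setting drops the low line that lay within the high range for Krt18, Myo5b and Lad1. Members of the junction, keratin and epithelial surface lists that fell were Plekha7, Crb3, Llgl2, Pard6b, Krt8, Krt18, Myo5b and Lad1, while the brightest probe set of Epcam rose by 0.90. On the log2 scale Krt18 fell by 5.23 ± 0.45 (SE; limma adjusted p = 3.2e-04) and Crb3 by 3.99 ± 0.40 (SE; limma adjusted p = 8.9e-04). Tgfa, a ligand of the EGF receptor chosen after the values were seen, was at 5.00 and 5.45 in AKP 1 and AKP 8, against 10.10 in AKP 10 and 9.89 to 11.66 in the high lines (limma adjusted p = 1.3e-04). Thy1, Pdgfrb, Postn, Tgfbr3, Ifit1 and Ifit3 were among the genes that rose. Postn, the matrix protein periostin, was at 14.25 in AKP 1 and 7.14 in AKP 8 against 2.79 to 4.73 (limma adjusted p = 0.0374). With AKP 1 left out instead, 46 genes rose and 10 fell. Of the junction, keratin and epithelial surface lists, only Pard6b was then among the genes that fell.

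The AP lines were not used to form the groups. By the same limit AP 1, at a Cdh1 value of 3.70, was low, and AP 2 and AP 3, at 11.32 and 9.77, were high, too few for a test of their own. In AP 1 all 9 called genes lay on the side of the low AKP lines, beyond both other AP lines. The same held for 45.5% of all genes and for 70% of the 587 overlapping genes with a mean difference of at least 2. Pdgfrb was at 15.27 in AP 1 against 6.83 and 6.88, A4galt at 9.72 against 2.73 and 2.71, and Calhm2 at 8.04 against 2.80 and 2.93. Dennd2a was close, at 9.22 against 9.18 and 7.75, so AP 2 and AP 3 lay above the highest high AKP line, at 5.75. Acsbg1 was at 3.97 against 4.88 and 4.23, a difference of -0.59 beside -4.94 in AKP lines, so all AP lines lay below every high AKP line for it. Of the 235 genes without overlap in AKP lines, 191 (81.3%) had the same sign in AP lines, against 58.5% of all genes and 79.9% of the 587 overlapping genes with a mean difference of at least 2.

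In AP 1 Krt8 lay at 2.46 and Krt18 at 3.62, below every low AKP line for these 2 keratins. Over all 15 lines with the label as a covariate, 60 genes passed, 29 higher and 31 lower, with all 9 genes among them. Krt8 (-6.83 ± 1.02, SE; limma adjusted p = 0.0154), Cgn (-4.98 ± 0.71, SE; limma adjusted p = 0.0127), Perp, Pard6b, Crb3, Lsr and Wfdc2 then fell, and Prrx1 (7.09, limma adjusted p = 0.0158), Serpinh1 and Thy1 rose.

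**Figure D5:**
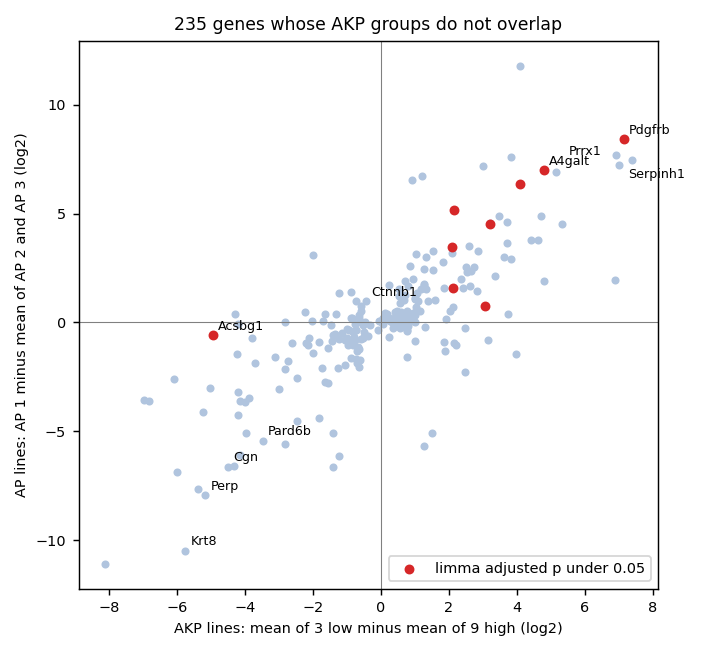
Low minus high difference on the log2 scale in the 3 low and 9 high AKP lines (horizontal) and in AP 1 against the mean of AP 2 and AP 3 (vertical), for the 235 genes whose AKP groups do not overlap. The 9 called genes, in red, have the same sign in both, and 191 of the 235 do.

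The labels did not separate the groups. Female lines were 2 of 3 in the low group and 7 of 9 in the high group, and lines with a pair number were 2 of 3 and 5 of 9 (Fisher's exact test, two-sided, p = 1 for each). With 3 low lines these tests have little reach.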

How the data were processed

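The authors deposited 1 log2 value for each probe set and line, without detection calls. How they corrected, summarized and scaled the arrays is not given in the sources used here. A table of the authors' own AKP against AP comparison was used only for its deposited group means, in log2 per the file headers. No column of per-sample values was left out.

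From 45101 probe sets 64 controls were dropped. The platform's annotation named 1 gene for 34945 of the rest, more for 932 and none for 9160. By Entrez identifier 34741 matched the RefSeq table of GRCm38.p6. Each of 18193 genes took its probe set with the highest mean over 15 arrays, with no further scaling or filter. Low minus high was fitted over the 12 AKP lines with limma 3.58.1 (R 4.3.3; lmFit, eBayes, two-sided tests, no covariate) with Benjamini-Hochberg adjustment over 18192 genes and a threshold of 0.05. It was tested on simulated data. Other steps ran in Python 3.11.15 with pandas 2.3.3, scipy 1.17.1 and matplotlib 3.10.9. The precision is limited by the number of low lines, 3.

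The groups, the 20 gene lists and the tests were chosen with earlier results of these data known. Of the listed genes, 18 had no single-gene probe set and are not analysed here. Named genes are Cdh1, Krt8 and Krt18, the 12 largest differences in each direction among called genes with a higher group mean of at least 4.17 (places left going to genes whose groups did not overlap), and the 3 list members with the lowest p beside called members (up to 6). Predicted genes and clones are not named. Not every gene named by this rule is reported here. Other list members are given as values, and genes outside this rule are marked as chosen after their values were seen. Alternatives covered scaling, filters on dim genes, the probe set rule, the variance model, array weights, Cdh1 as a continuous value, the limit on Cdh1, covariates, the AP lines and leaving out each line.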

Additional observations from a re-analysis of the deposited data

Results flagged for a closer look

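Among 79 genes checked, 9 had a high line farther from its neighbour than the Dixon limit of 0.493 of the range allows, and chance flags about 1 in 20 such groups of samples. AKP 7, the high line with the least Cdh1, was the lowest high line for Krt18 at 14.01 and for Wfdc2 at 8.43, and the highest for Emcn, an endothelial gene, at 3.09. AKP 3 was the lowest for Tgfb1i1 at 2.60 and the highest for Thy1 at 3.08. AKP 6, the line labelled adenoma, was the highest for Serpinh1 at 10.20 and for Postn at 4.73. AKP 5 was the highest for Pdgfrb at 6.45 and AKP 4 for Flt1 at 11.39.

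For 3 of 78 genes the limma interaction term of Cdh1 group and label passed, beside 450 of all 18192 genes (2.47%). AP 1 is the only low AP line and is assumed to vary like the AKP lines, so the term compares that array and cannot tell it apart from AP lines as such. The excess was -7.52 ± 1.70 for Krt18 (SE; limma adjusted p = 0.038), 3.03 ± 0.43 for Calhm2 (SE; limma adjusted p = 0.00114) and -3.69 ± 0.81 for Epha2, an ephrin receptor (SE; limma adjusted p = 0.0316). The cause was not tested.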

How the results depend on the processing

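The number of genes called was 9 also with each array centred on its median, quantile normalization, the trend and robust variance model, a limit at the widest gap, sex as a covariate (8 of the 9 genes) or without the adenoma-labelled line (7 of the 9). It was 8 with pair number as a covariate (7 of the 9), 12 after dropping genes below the 40th percentile of brightness (6 of the 9) and 11 with the probe set of largest variance. It moved to 2 after dropping those below the 60th percentile (7276 genes tested), 4 with array weights and 5 with Cdh1 as a continuous covariate. With all 15 lines and the AKP or AP label as a covariate it was 60. Leaving out each line gave 6 to 143. The counts were 56 without AKP 1, of which 8 were among the 9, 15 without AKP 8, with 4 of them, and 143 without AKP 10, with all 9. Among settings chosen after seeing the data, it was 85 without AKP 1 and AKP 8, with 3 of the 9 and AKP 10, as the lone low line, assumed to vary like the others, and 5 without AKP 11 and AKP 12. Apart from the smaller number of genes or lines in some settings, the cause was not tested.

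For 78 named genes, 1928 of 2046 alternative values kept direction and side of the threshold, 52 no longer passed, 54 newly passed and 12 reversed, none of them in a called gene. Without AKP 1 and AKP 8 these were Cd74 (-0.086), Flt1 (0.21), Emcn (-0.15), Epha2 (0.080), Mmp2 (-0.80), Mcm2 (0.73), Cdk1 (0.65) and Pcna (0.47). Over the fits that left out a single line, Emcn ran from -0.16 to 2.36 (lowest without AKP 1), Tff3 from -0.036 (without AKP 10) to 0.58, Cdk1 from -0.80 to 0.041 (highest without AKP 8) and Pcna from -0.48 to 0.11 (highest without AKP 1). No paired analysis was possible because the pair numbers in the labels each occur once among these lines. Values below about 3 lie on the floor of the arrays, which limits differences that start or end there.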

Other observations

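Some genes outside the lists also had no overlap between the low and high lines, chosen here after their values were seen. Btc, a ligand of the EGF receptor, differed by -4.21, Igfbp3, which binds insulin-like growth factors, by -3.89, and Nrarp, a Notch target, by -4.24. In the other direction Fbln5, an elastic fibre protein, differed by 5.15, Pmp22, a myelin protein, by 4.81, Hspb8, a small heat shock protein, by 4.64, Col8a1, a short-chain collagen, by 4.41 and Mef2c, a transcription factor of muscle, by 3.98. None passed the adjusted threshold in limma over the 12 AKP lines with 1 probe set per gene. In other settings Nrarp passed without AKP 10, Mef2c without AKP 1, Igfbp3 and Fbln5 over all 15 lines, and Hspb8 and Mef2c with every probe set tested singly.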
